A study of Homo sapiens with 4 samples.

Results

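The 44 genes described here encode the machinery that copies DNA: the factors that license replication origins, the replicative helicase, the polymerases, the sliding clamp with its loader, the enzymes that join the lagging strand, and the proteins that protect forks and package new DNA. They were chosen by name for what their proteins do, and earlier results of these data were known when they were chosen. Each symbol matched 1 of 64252 Ensembl gene identifiers in the count table. All 44 passed the filter on low counts and were among 17461 genes tested. RNA was sequenced from J.gamma1 cells in 2 groups. J.gamma1 is a Jurkat derivative, and so of T-cell leukemia origin, without the signalling enzyme phospholipase C gamma 1. Cells of one group carried a short hairpin RNA against ELOVL5 (shELOVL5, 2 libraries), an elongase of polyunsaturated fatty acids, and the others carried a control hairpin (shNC, 2 libraries). Both groups share the genetic background of this 1 line, and the labels name a single hairpin against ELOVL5.

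Replication starts when the origin recognition complex, CDC6 and CDT1 load the ring of MCM2 to MCM7 onto DNA in G1. In S phase, kinases and firing factors join CDC45 and the GINS tetramer to that ring, which then unwinds DNA ahead of the polymerases. Many of these genes are transcribed under E2F factors as cells enter S phase, so their transcripts are common markers of proliferation in leukemia cells.

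Of the 44 genes, 25 fell in shELOVL5 cells and 0 rose (edgeR's quasi-likelihood test, adjusted p under 0.05 over all tested genes). Of all tested genes, 11.2% fell and 9.22% rose, or 20.4% together. At an unadjusted p under 0.05, 29 replication genes were lower and 0 were higher. The share of all tested genes at that threshold is not given here. DESeq2 and limma-voom each called 24 replication genes lower and 0 higher. Of all 17461 tested genes, DESeq2 called 1609 lower and 1190 higher, and limma-voom called 1740 lower and 1356 higher. The log2 fold change (shELOVL5 over shNC) was below 0 for 39 of the 44 genes, against 49.2% of all tested genes, and its median was -0.29 for the 44 and 0.006 for all. The falls were modest, from 1.14-fold for RPA1 to 1.61-fold for PRIM2. Levels are given as CPM, read counts relative to TMM-scaled library sizes. Summed over the 44 genes they came to 5598 and 5645 CPM in the shELOVL5 libraries, against 6871 and 6866 CPM in the shNC libraries, so that the shELOVL5 mean was 81.8% of the shNC mean. In bulk RNA, fewer cells in S phase and less of these transcripts per cell cannot be told apart.

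**Figure D1:**
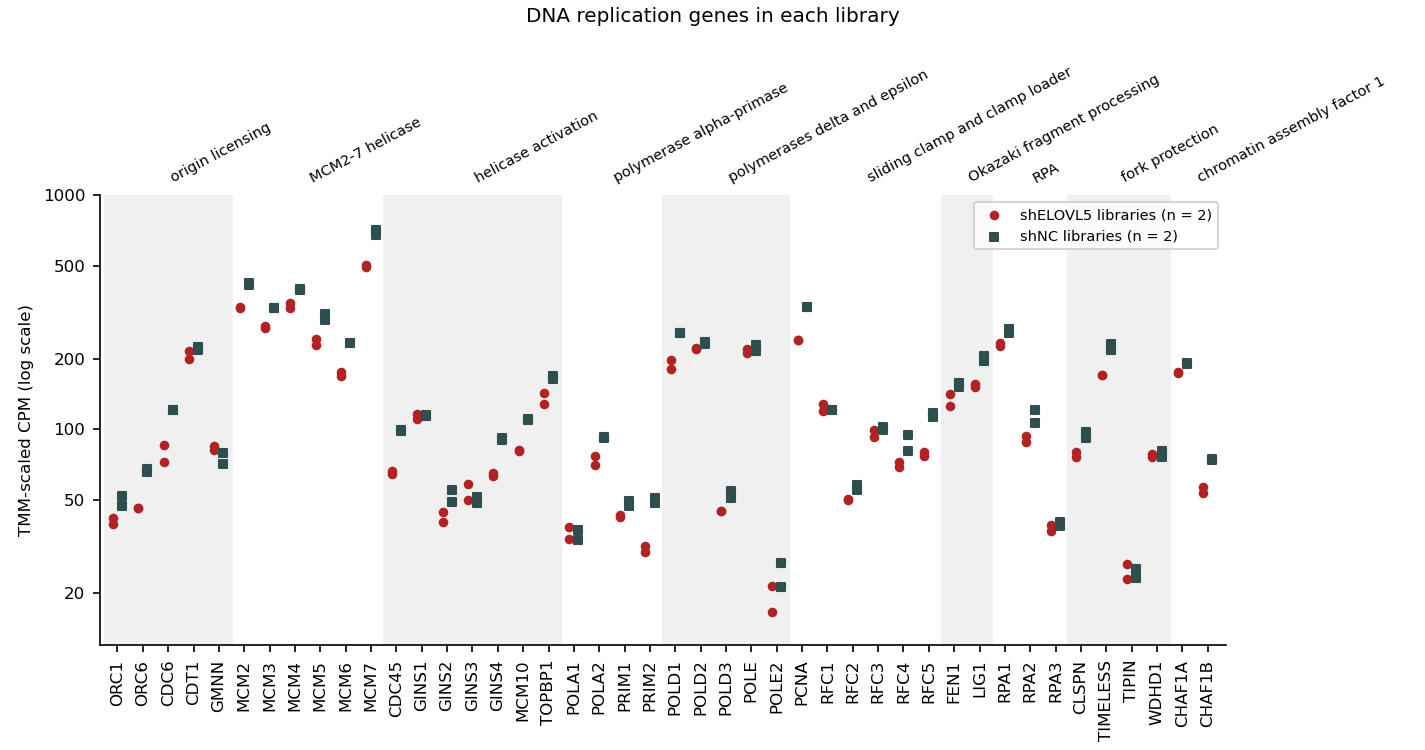
TMM-scaled CPM (log axis) of the 44 replication genes, grouped by complex, with 1 point per library (red circles, 2 shELOVL5 libraries; dark squares, 2 shNC libraries). The shELOVL5 libraries lie below both shNC libraries for 33 genes, above both for GMNN alone, and overlap them for 10.

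Both shELOVL5 libraries lay below both shNC libraries for 33 of the 44 genes, which include all 25 called genes, and above both for 1. Groups did not overlap for 60.1% of all tested genes, with shELOVL5 below in 30.1% and above in 30.0%. Of the 19 genes that did not pass, 14 had a log2 fold change below 0 and 8 had groups that did not overlap with shELOVL5 lower. In a stricter test against a 1.2-fold change, 12 of the 44 genes passed as lower and 0 as higher, against 3.67% and 2.34% of all tested genes. These were ORC6, CDC6, MCM6, MCM7, CDC45, GINS4, MCM10, PRIM2, POLD1, PCNA, RFC5 and TIMELESS. Among the 8497 tested genes whose mean level lay in the range of the 44, from 21.6 to 594 CPM, 18.2% fell and 14.3% rose.

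The data behind these values were of even depth. Libraries held 16311139 to 17338719 counts in shELOVL5 and 16254002 to 17246603 in shNC (3 counts are 0.172 to 0.187 CPM), and the 44 genes had 275 to 11995 counts in each library. ELOVL5 itself had 1255 and 1157 counts in the shELOVL5 libraries, against 5816 and 5664 counts in the shNC libraries (log2 fold change -2.29, SE 0.049, adjusted p = 1.79e-09). Mitochondrially encoded genes took 3.30% and 3.11% of counts in shELOVL5, against 2.62% and 2.61% in shNC. Each of 12 T cell markers was detected, with sums of 2317 to 2348 CPM in shELOVL5 and 2361 to 2403 CPM in shNC. Single markers did move: 6 of them fell (50.0%) and 2 rose, against 11.2% and 9.22% of all tested genes. Of 8 B cell markers 4 passed the low-count filter, with sums of 41.4 to 44.4 CPM in shELOVL5 and 57.8 to 65.0 CPM in shNC, mostly CD79A. Sums over 8 myeloid markers were 0.847 to 1.72 CPM in shELOVL5 and 1.00 to 1.68 CPM in shNC. Sums over 8 erythroid markers were 8.64 to 11.2 CPM in shELOVL5 and 12.5 to 12.7 CPM in shNC, and over 8 epithelial or fibroblast markers 12.4 to 12.9 CPM in shELOVL5 and 11.3 to 11.8 CPM in shNC. The part of these lists in the result was not tested. LYZ, CSF1R, FCGR3A, HBB, ALAS2, EPCAM, CDH1, COL1A2, COL3A1 and DCN had 0 counts in every library.

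Letters of the kind that E2F factors are known to bind stood in part of the promoters. Short stretches around them are shown for 4 genes that fell and 4 that did not pass, out of 13 genes with a match. RefSeq promoter windows (GRCh38.p14) were found for 38 of the 44 genes, and the 250 bases before each start were searched on both strands for TTTCCCGC, TTTGGCGC, TTTCGCGC or TTTGCCGC. Read on the opposite strand, TTTCCCGC is GCGGGAAA and TTTGGCGC is GCGCCAAA, matches can overlap, and a gene was counted once. The letters occurred in 13 of 38 replication genes (34.2%), against 5.49% of 11151 tested genes and 3.40% of all 27305 genes with an entry. They were present in 6 of the 21 genes that fell (28.6%) and in 7 of the 17 that did not pass (41.2%). No window was found for MCM4, MCM5, GINS4 and RPA2, which fell, or for POLD3 and RPA3, which did not pass. In the following 30-base windows, read 5′ to 3′ on the strand of the gene, the letters of a single match are in capitals. The MCM6 window also holds an overlapping match, TTTCGCGC on the opposite strand, which is only partly in capitals. The first 4 genes fell and the last 4 did not pass.
MCM6, chr2:135876577-135876606, minus strand: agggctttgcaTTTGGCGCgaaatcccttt
MCM7, chr7:100101566-100101595, minus strand: cagctcggaccGCGGGAAAcccggcgcctg
PCNA, chr20:5126663-5126692, minus strand: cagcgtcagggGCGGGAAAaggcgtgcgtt
LIG1, chr19:48170440-48170469, minus strand: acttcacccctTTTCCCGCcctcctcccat
CDT1, chr16:88803743-88803772, plus strand: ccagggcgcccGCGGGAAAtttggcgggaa
POLE, chr12:132687343-132687372, minus strand: ctgggtgggagcGCGCCAAAtttctcccct
RFC3, chr13:33818083-33818112, plus strand: atttggagctcGCGGGAAAacttgtctctg
POLA1, chrX:24693770-24693799, plus strand: gtcatcacaggGCGCCAAAcgcgcgtccgc
TTTCCCGC, on either strand, stood in 7 of the 38 genes, of which MCM3, MCM7, PCNA and LIG1 fell and CDT1, GINS2 and RFC3 did not pass. The CCAAT letters occurred in 23 of the 38 genes (60.5%), against 40.9% of tested and 37.0% of all genes. The E-box CACGTG occurred in 6 (15.8%), against 11.2% of tested and 7.73% of all genes. CCAAT was in 12 of the 21 genes that fell (57.1%) and 11 of the 17 that did not pass (64.7%). For CACGTG these were 5 (23.8%) and 1 (5.88%), and no such split was tested. TTTGAA was not in the searched window of any of the 38 and was in 11.9% of tested and 16.1% of all genes. A match is a description of letters, and binding was not measured.

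Origin licensing genes were split, with CDC6 and ORC6 lower and the CDT1 and geminin pair not past the test. CDC6, the ATPase that helps to load the helicase ring (chromosome 17, 40287633 to 40304657, GRCh38, GENCODE release 29), had 85.4 and 72.6 CPM in shELOVL5 libraries, against 120.4 CPM in both shNC libraries (log2 fold change -0.61, SE 0.077, adjusted p = 0.000406). ORC6, the smallest subunit of the origin recognition complex, had 46.1 and 46.0 CPM in shELOVL5, against 67.7 and 65.5 CPM in shNC (log2 fold change -0.53, adjusted p = 0.00104). In both genes the groups were well apart. ORC1, the largest subunit of that complex, had 39.4 and 42.0 CPM in shELOVL5, against 51.9 and 47.2 CPM in shNC, and did not pass (log2 fold change -0.28, 95% interval -0.49 to -0.07, adjusted p = 0.0594). CDT1, the loading factor that works with CDC6, had 199.8 and 216 CPM in shELOVL5, against 224 and 219 CPM in shNC (log2 fold change -0.09, adjusted p = 0.255). GMNN, which encodes geminin, the protein that blocks CDT1 outside G1, was the one gene of the 44 with both shELOVL5 libraries above both shNC libraries. It had 81.5 and 84.9 CPM in shELOVL5, against 79.3 and 71.1 CPM in shNC, and did not pass (log2 fold change 0.14, 95% interval -0.02 to 0.31, adjusted p = 0.214).

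Every subunit of the MCM2 to MCM7 ring fell, and this was the complex with the highest summed level. The 6 genes together had 1851 and 1845 CPM in shELOVL5, against 2368 and 2366 CPM in shNC. MCM7 (chromosome 7, 100092728 to 100101940) had 502 and 495 CPM in shELOVL5, against 706 and 674 CPM in shNC, with the smallest p of the 44 genes (log2 fold change -0.47, SE 0.038, adjusted p = 1.78e-05). MCM6 had 169 and 176 CPM in shELOVL5, against 234 CPM in both shNC libraries (log2 fold change -0.44, adjusted p = 0.000103). In neither gene did the groups come near to overlapping. MCM5 had 229 and 244 CPM in shELOVL5, against 293 and 310.3 CPM in shNC, a log2 fold change of -0.35. MCM2, a main target of the kinase CDC7 in origin firing, had 331 CPM in both shELOVL5 libraries, against 411 and 419.9 CPM in shNC (-0.33). MCM3 had 275 and 269 CPM in shELOVL5, against 329.9 and 329 CPM in shNC (-0.27). MCM4 moved least of the 6, with 345 and 331 CPM in shELOVL5, against 394 and 399 CPM in shNC (log2 fold change -0.23, adjusted p = 0.00286). With any 1 library left out all 6 had an adjusted p under 0.05, the highest being 0.0431 for MCM4. Such a fit sets 1 library against 2 and assumes that the lone library varies like the other group, here and wherever a library is left out. Per kilobase of merged exon, MCM7 had the highest level of the ring with 114 CPM in shELOVL5 and 157 CPM in shNC. MCM5 had the lowest with 32.2 CPM per kilobase in shELOVL5 and 41.1 in shNC. MCM7 shares 392 bases of exon with AP4M1 on the opposite strand, which also fell (586 and 604 counts in shELOVL5, 907 and 884 counts in shNC). Reads in the overlap cannot be assigned without strand, and both genes are uncertain by that amount.

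**Figure D2:**
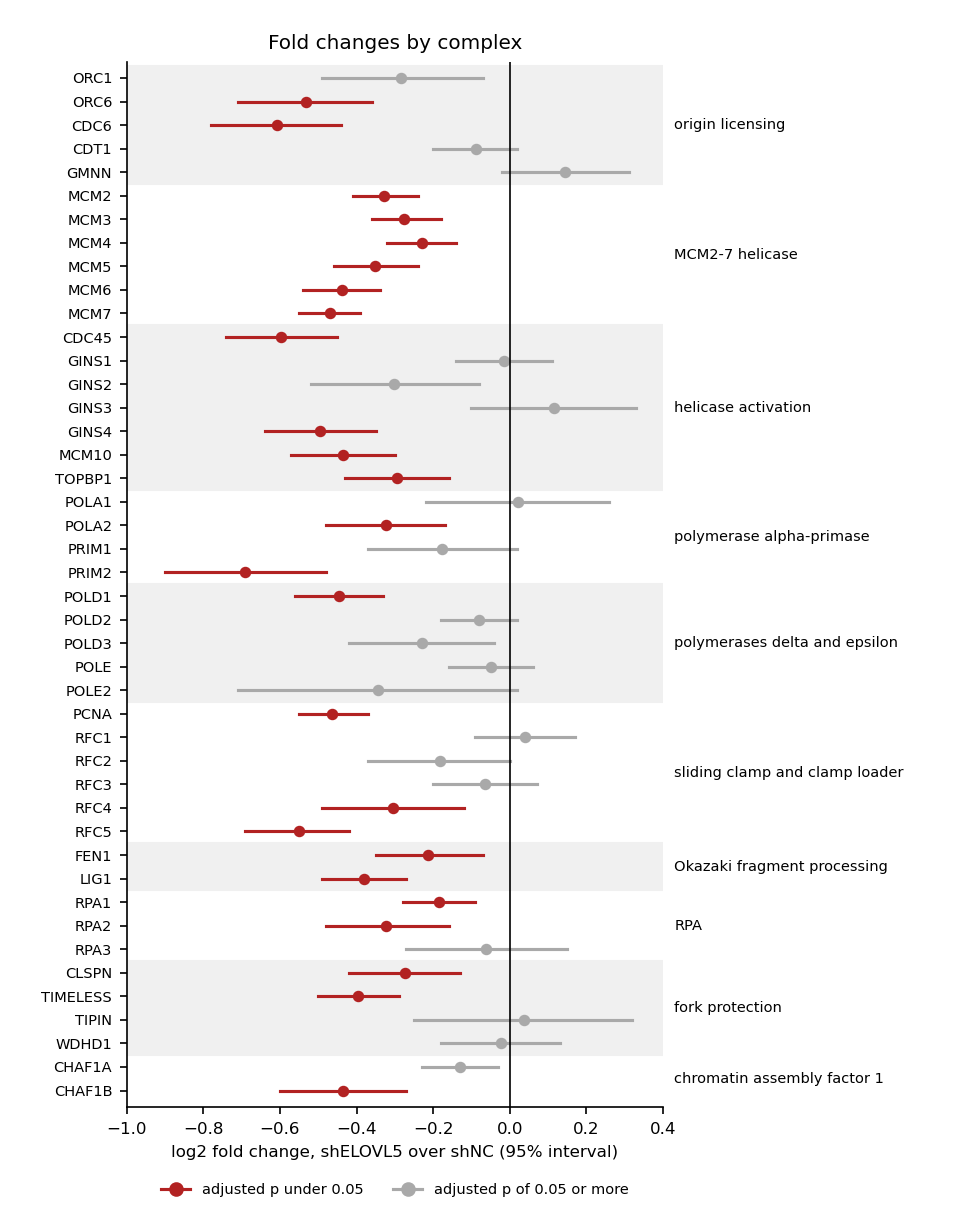
Log2 fold change (shELOVL5 over shNC) of each of the 44 genes with its 95% interval, grouped by complex; red marks an adjusted p under 0.05 and grey the rest. All 6 genes of the MCM2 to MCM7 ring are red, between -0.47 and -0.23, while the other complexes of 3 or more genes each hold grey members too.

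Helicase activation genes fell in 4 of 7 cases. CDC45, the subunit that completes the active helicase (chromosome 22, 19479459 to 19520612), had 66.2 and 64.6 CPM in shELOVL5, against 98.3 and 99.3 CPM in shNC (log2 fold change -0.60, SE 0.065, adjusted p = 0.000134). MCM10, which helps to activate the assembled helicase, had 81.6 and 81.2 CPM in shELOVL5, against 111 and 109 CPM in shNC (log2 fold change -0.43, adjusted p = 0.000555). For both genes the gap between groups was many times the spread within them. The 4 subunits of GINS, the tetramer that binds with CDC45, did not move as a block. GINS4 had 63.5 and 65.2 CPM in shELOVL5, against 91.4 and 90.0 CPM in shNC (log2 fold change -0.49, adjusted p = 0.00056). It shares 1159 bases of exon with an antisense gene, AC009630.2, which had 126 and 70 counts in shELOVL5 and 57 and 120 counts in shNC. GINS2 had 40.1 and 44.2 CPM in shELOVL5, against 54.9 and 49.0 CPM in shNC. At a log2 fold change of -0.30 it missed the threshold (adjusted p = 0.0538), and with shNC replicate 2 left out it passed (log2 fold change -0.39, adjusted p = 0.0383). GINS1 had 116 and 111 CPM in shELOVL5, against 114 and 115 CPM in shNC (log2 fold change -0.02, 95% interval -0.14 to 0.11). GINS3 had 50.0 and 58.5 CPM in shELOVL5, against 48.6 and 51.5 CPM in shNC (log2 fold change 0.11, 95% interval -0.10 to 0.33). In GINS1 and GINS3 the libraries of the groups overlapped. The interval of GINS4 (-0.64 to -0.35) overlapped neither of theirs. TOPBP1, which brings CDC45 to origins and also activates the checkpoint kinase ATR, had 128 and 144 CPM in shELOVL5, against 164 and 168 CPM in shNC (log2 fold change -0.29, adjusted p = 0.00733). It did not pass without shELOVL5 replicate 1 (adjusted p = 0.073).

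In polymerase alpha-primase, which lays down the RNA-DNA primers, 1 primase subunit and 1 polymerase subunit fell. PRIM2, the large primase subunit (chromosome 6, 57314805 to 57646849), had the largest fold change of the 44 genes, with 29.9 and 31.7 CPM in shELOVL5, against 48.6 and 50.7 CPM in shNC (log2 fold change -0.69, SE 0.095, adjusted p = 0.000593). Its partner PRIM1, the catalytic primase subunit, had 43.1 and 42.1 CPM in shELOVL5, against 47.0 and 49.4 CPM in shNC (log2 fold change -0.18, adjusted p = 0.2). Their groups were apart in both cases, by more for PRIM2. POLA2, the accessory subunit, had 77.2 and 70.6 CPM in shELOVL5, against 92.0 and 93.0 CPM in shNC (log2 fold change -0.32, adjusted p = 0.00859), and did not pass without shELOVL5 replicate 2 (adjusted p = 0.0917). POLA1, the catalytic polymerase subunit, had 38.1 and 33.9 CPM in shELOVL5, against 33.8 and 37.2 CPM in shNC (log2 fold change 0.02, 95% interval -0.22 to 0.26). With 5.68 CPM per kilobase in shELOVL5 and 5.60 in shNC, POLA1 had the lowest level per length of the 44 genes.

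Of the genes for polymerases delta and epsilon, which extend the lagging and the leading strand, 1 of 5 fell. POLD1, the catalytic subunit of polymerase delta (chromosome 19, 50384204 to 50418016), had 181 and 198 CPM in shELOVL5, against 257 and 259 CPM in shNC (log2 fold change -0.45, SE 0.052, adjusted p = 0.000207). POLE, the catalytic subunit of polymerase epsilon, had 219.6 and 211 CPM in shELOVL5, against 215 and 229.6 CPM in shNC (log2 fold change -0.05, 95% interval -0.16 to 0.06). The groups were apart for POLD1 and overlapped for POLE, and their intervals (-0.56 to -0.33 for POLD1) did not overlap. The accessory subunits POLD2 (log2 fold change -0.08, adjusted p = 0.233), POLD3 (-0.23, adjusted p = 0.0944) and POLE2 (-0.34, adjusted p = 0.181) did not pass. POLE2 was the least abundant of the 44 genes in CPM, with 21.4 and 16.6 CPM in shELOVL5 and 27.0 and 21.3 CPM in shNC, and its interval was the widest (-0.71 to 0.02).

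The sliding clamp fell, and its loader was split. PCNA, the ring that tethers polymerases to DNA (chromosome 20, 5114953 to 5126626), had 240.2 and 241 CPM in shELOVL5, against 333 and 331 CPM in shNC (log2 fold change -0.46, SE 0.041, adjusted p = 3.02e-05). Per kilobase of merged exon it was the most abundant of the 44, with 164 CPM in shELOVL5 and 226 CPM in shNC. Among the 5 subunits of replication factor C, the clamp loader, RFC5 had 79.9 and 77.0 CPM in shELOVL5, against 113 and 117 CPM in shNC (log2 fold change -0.55, adjusted p = 0.00014). RFC4 had 69.4 and 72.2 CPM in shELOVL5, against 94.1 and 80.9 CPM in shNC (log2 fold change -0.31, adjusted p = 0.0242). RFC4 did not pass without shELOVL5 replicate 1 (adjusted p = 0.142), shELOVL5 replicate 2 (0.0875) or shNC replicate 1 (0.138), nor with no low-count filter (0.0858). RFC1, the large subunit that other loaders lack, had 128 and 120.1 CPM in shELOVL5, against 121 CPM in both shNC libraries (log2 fold change 0.04, 95% interval -0.09 to 0.17). RFC2 (-0.18, adjusted p = 0.158) and RFC3 (-0.06, adjusted p = 0.535) did not pass, and the groups overlapped for RFC3.

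Both genes of Okazaki fragment processing fell. LIG1, the ligase that seals lagging-strand fragments (chromosome 19, 48115445 to 48170603), had 151 and 157 CPM in shELOVL5, against 196 and 205 CPM in shNC (log2 fold change -0.38, SE 0.050, adjusted p = 0.000442). FEN1, the flap endonuclease that trims them, had 126 and 141 CPM in shELOVL5, against 152 and 158 CPM in shNC (log2 fold change -0.21, adjusted p = 0.0358). FEN1 lost its call under more of the alternatives run than any other of the 25. It did not pass without shELOVL5 replicate 1 (adjusted p = 0.252) or shNC replicate 2 (0.127). Nor did it pass by DESeq2 (0.0512), limma-voom (0.0603), robust=FALSE (0.0637), total counts alone (0.0772) or with no low-count filter (0.119). FEN1 shares 166 bases of exon with TMEM258 on the opposite strand and 49 bases with FADS2 on its own strand, and FADS2 also fell (log2 fold change -0.20, adjusted p = 0.00382).

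Among the 3 subunits of RPA, the complex that coats single-stranded DNA, 2 fell. RPA2 had 87.9 and 93.9 CPM in shELOVL5, against 121 and 107 CPM in shNC (log2 fold change -0.32, SE 0.073, adjusted p = 0.0105). RPA1, the largest subunit, had 234 and 227 CPM in shELOVL5, against 267 and 258 CPM in shNC (log2 fold change -0.19, adjusted p = 0.0147). RPA3 had 39.0 and 36.7 CPM in shELOVL5, against 40.3 and 38.6 CPM in shNC, with groups that overlapped (log2 fold change -0.06, adjusted p = 0.717). Both calls were lost without some libraries. RPA2 did not pass without shELOVL5 replicate 1 (adjusted p = 0.0946) or shNC replicate 1 (0.0568), nor with no low-count filter (0.0557). RPA1 did not pass without shELOVL5 replicate 1 (0.056), shELOVL5 replicate 2 (0.116) or shNC replicate 1 (0.0505).

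Fork protection genes fell in 2 of 4 cases. TIMELESS, which holds the helicase and polymerases together at the fork (chromosome 12, 56416373 to 56449403), had 170.4 CPM in both shELOVL5 libraries, against 218 and 230.2 CPM in shNC (log2 fold change -0.39, SE 0.048, adjusted p = 0.000271). TIPIN, its binding partner, had 26.7 and 22.9 CPM in shELOVL5, against 23.1 and 25.2 CPM in shNC (log2 fold change 0.04, 95% interval -0.25 to 0.32). The groups were apart for TIMELESS and overlapped for TIPIN. CLSPN, which encodes claspin, the mediator of the checkpoint kinase CHK1, had 76.2 and 80.0 CPM in shELOVL5, against 97.0 and 91.8 CPM in shNC (log2 fold change -0.27, adjusted p = 0.0156). It did not pass without shELOVL5 replicate 1 (adjusted p = 0.111), shELOVL5 replicate 2 (0.0567) or shNC replicate 1 (0.0641). WDHD1, which links the helicase to polymerase alpha, had overlapping groups of 76.2 and 78.5 CPM in shELOVL5 and 76.4 and 80.8 CPM in shNC (log2 fold change -0.02, 95% interval -0.18 to 0.13).

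In chromatin assembly factor 1, which deposits histones on new DNA, the middle subunit fell. CHAF1B (chromosome 21, 36385378 to 36419015) had 53.4 and 56.8 CPM in shELOVL5, against 74.7 and 74.3 CPM in shNC (log2 fold change -0.44, SE 0.076, adjusted p = 0.00256). CHAF1A, the large subunit, had 173 and 176 CPM in shELOVL5, against 189.8 and 192 CPM in shNC. Its groups did not overlap, and it did not pass (log2 fold change -0.13, 95% interval -0.23 to -0.03, adjusted p = 0.0721). RBBP4, the small histone-binding subunit that other chromatin complexes share, is not among the 44 genes and fell further, with 322 and 311 CPM in shELOVL5, against 534 and 532 CPM in shNC (log2 fold change -0.75, SE 0.039, adjusted p = 8.58e-07).

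**Figure D3:**
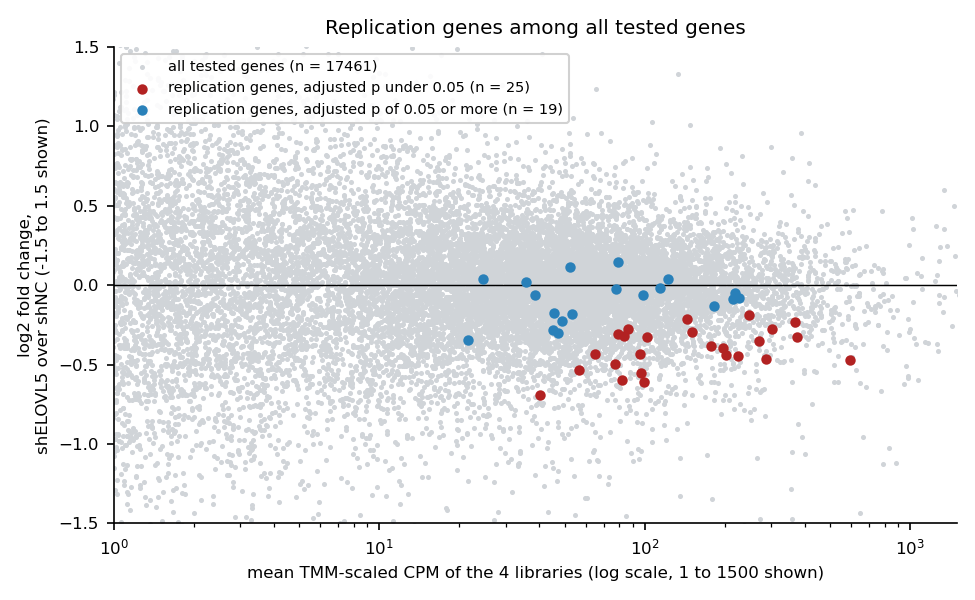
Log2 fold change (shELOVL5 over shNC, axes cropped) against mean TMM-scaled CPM (log axis) for all 17461 tested genes in grey, with the 25 replication genes that passed in red and the 19 that did not in blue. The red points lie at log2 fold changes of -0.69 to -0.19 and the blue points between -0.34 and 0.14.

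Lists of genes that work beside the 44 also held genes that fell. Their counts at edgeR's adjusted p under 0.05 are to be read against 11.2% of all tested genes, and 18.2% of those in the range of levels of the 44. Those shares do not apply to the counts at an unadjusted p, here or in the next paragraph. For these the share of all tested genes is not given. Of 28 other replication factors 8 fell and 0 rose, 13 and 0 at an unadjusted p under 0.05, with a median log2 fold change of -0.14, and DESeq2 called 6 and limma-voom 7 as lower. POLE3, a histone-fold subunit of polymerase epsilon, had 145 and 137 CPM in shELOVL5, against 214 and 216 CPM in shNC (log2 fold change -0.61, adjusted p = 1.83e-05). DBF4, the activator of the origin-firing kinase CDC7, had 59.7 and 53.7 CPM in shELOVL5, against 84.1 and 80.4 CPM in shNC (log2 fold change -0.54). RECQL4, a helicase needed for origin firing, had a log2 fold change of -0.33. Without shELOVL5 replicate 1 or 2, 4 and 5 of these genes fell. Among 11 histone chaperone and maintenance methylation genes, with a median log2 fold change of -0.25, 8 fell and 0 rose, 9 and 0 at an unadjusted p under 0.05, and DESeq2 and limma-voom each called 8 and 0. Besides RBBP4 they were led by NASP, a histone chaperone gene (log2 fold change -0.43, adjusted p = 0.000247), and UHRF1, which guides the maintenance methyltransferase to new DNA (-0.33). Without shELOVL5 replicate 1 or 2, 4 and 5 of these fell. Of 11 tested genes of deoxynucleotide supply, with a median log2 fold change of -0.24, 7 fell and 0 rose, 8 and 0 at an unadjusted p under 0.05, and DESeq2 and limma-voom each called 7 and 0. TYMS, the thymidylate synthase gene, had 746 and 741 CPM in shELOVL5, against 1171 and 1117 CPM in shNC, and the ribonucleotide reductase gene RRM1 (log2 fold change -0.44) and the thymidine kinase gene TK1 (-0.48) fell too. Without shELOVL5 replicate 2, 4 of these fell, and without either shNC library 1 rose.

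Of 19 E2F, RB and MYBL2 regulators 4 fell and 1 rose, 6 and 2 at an unadjusted p under 0.05, with a median log2 fold change of -0.11. The 21.1% that fell is near the 18.2% among all tested genes in the range of levels of the 44, where 14.3% rose. E2F1, an activator of S phase genes, had 103 and 101 CPM in shELOVL5, against 130.4 and 130.1 CPM in shNC (log2 fold change -0.35, adjusted p = 0.00134), and E2F2, another activator, had the same log2 fold change. E2F7, an atypical family member that represses E2F targets, rose, with 103 and 97.2 CPM in shELOVL5, against 65.9 and 65.3 CPM in shNC (log2 fold change 0.61, SE 0.067, adjusted p = 0.000138). RB1, whose protein restrains E2F factors, fell by 0.29 on the log2 scale. Among 13 S phase kinase and licensing degradation genes, with a median log2 fold change of -0.17, 5 fell and 0 rose, 6 and 0 at an unadjusted p under 0.05, with 4 by DESeq2, 5 by limma-voom and 3 without either shELOVL5 library. SKP2, which marks CDK inhibitors and CDT1 for degradation, had 48.5 and 40.0 CPM in shELOVL5, against 100.1 and 104 CPM in shNC (log2 fold change -1.21, SE 0.093, adjusted p = 1.38e-05). CDK2, the S phase kinase, and CUL4B, a ligase scaffold, fell by 0.35 and 0.42 on the log2 scale. Of 16 replication checkpoint genes 4 fell and 0 rose, 6 and 2 at an unadjusted p under 0.05, and DESeq2 and limma-voom each called 4 and 0. The 25.0% that fell compares with 11.2% of all tested genes and 18.2% of those in the range of levels of the 44. The median log2 fold change of the list was 0.07, and 9 of its 16 genes were above 0. CHEK1, the checkpoint kinase that claspin serves, had 42.2 and 42.7 CPM in shELOVL5, against 79.9 and 74.6 CPM in shNC (log2 fold change -0.86, SE 0.081, adjusted p = 4.39e-05). The repair genes FANCI (-0.23) and BRCA1 (-0.27) passed with all 4 libraries. FANCI did not pass without shELOVL5 replicate 1 (adjusted p = 0.0919), nor BRCA1 without shELOVL5 replicate 1 (0.0821), shELOVL5 replicate 2 (0.0865) or shNC replicate 1 (0.0808). Without shELOVL5 replicate 1, shELOVL5 replicate 2 or shNC replicate 1, 1, 2 and 2 checkpoint genes fell, and without shELOVL5 replicate 1 another rose. By total counts alone 3 fell and 2 rose, and with no low-count filter 2 fell.

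**Figure D4:**
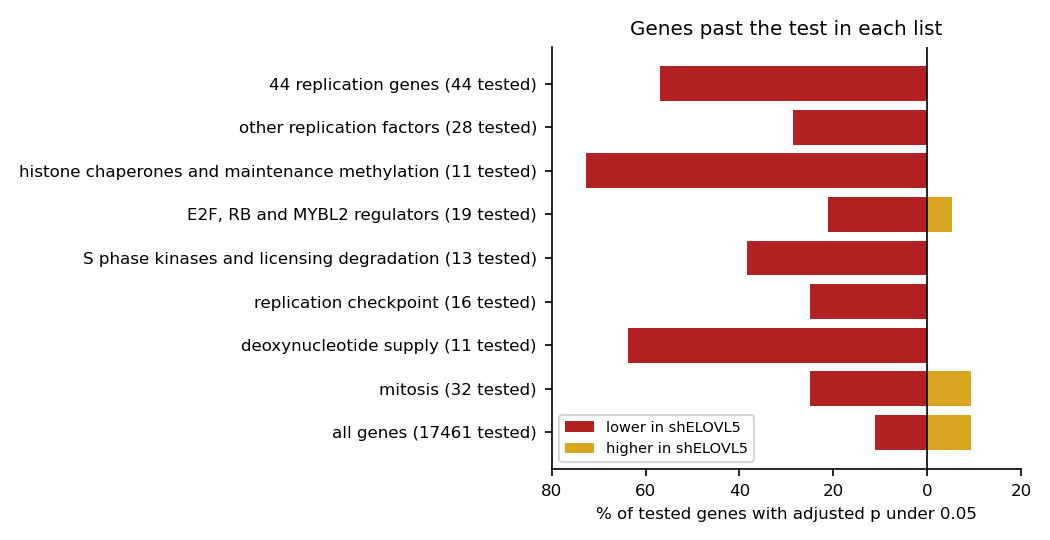
Share of tested genes with an adjusted p under 0.05, lower in shELOVL5 to the left and higher to the right, for the 44 replication genes, 7 related lists and all 17461 tested genes. Genes lower in shELOVL5 make up 56.8% of the 44 replication genes, 25.0% of mitosis genes and 11.2% of all genes.

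Mitosis genes included 8 of 32 lower (25.0%) and 3 higher, against 11.2% and 9.22% of all tested genes. Their median log2 fold change was -0.11. Among all tested genes in the range of levels of the replication genes, 18.2% fell and 14.3% rose. The share of mitosis genes that rose was thus near that of all tested genes and below that of genes at similar levels. DLGAP5, a spindle gene, had a log2 fold change of -0.72 (adjusted p = 3.06e-05), and INCENP and AURKB, of the chromosomal passenger complex, each fell by 0.41 on the log2 scale. PRC1, a midzone protein gene, had 213 and 215 CPM in shELOVL5, against 170.5 and 169 CPM in shNC (log2 fold change 0.34), and the phosphatase gene CDC25B rose by 0.35 on the log2 scale. The third that rose was ANLN, the anillin gene (0.19), which did not pass without shELOVL5 replicate 1 (adjusted p = 0.22), shELOVL5 replicate 2 (0.0895) or shNC replicate 2 (0.132), nor by DESeq2 (0.0693) or with no low-count filter (0.0724). Without shELOVL5 replicate 2, 5 mitosis genes fell, and without either shELOVL5 library or shNC replicate 2, 2 rose. The difference between the replication and mitosis genes was not tested.

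**Figure D5:**
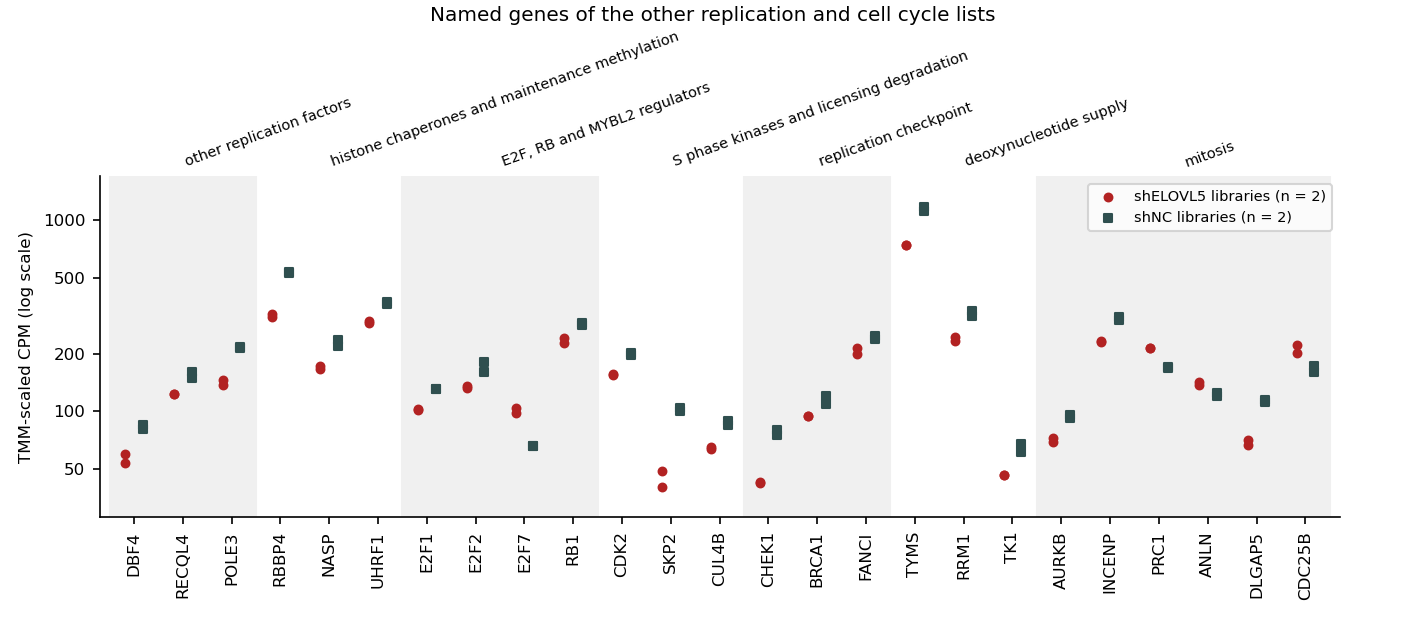
TMM-scaled CPM (log axis) in each library (red circles, 2 shELOVL5 libraries; dark squares, 2 shNC libraries) for up to 3 genes per direction with the smallest p in each related list. E2F7, PRC1, ANLN and CDC25B are higher in both shELOVL5 libraries and the other genes shown are lower, SKP2 with the largest gap.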

How the data were processed

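The authors deposited raw whole-number counts of reads for each Ensembl gene, 1 column per library. Per the submitters' processing notes, HISAT2 2.2.0 and StringTie were used with genome build hg38; what each did is not stated there. The setting for annotation, counting and strand was not given in the sources used here. Symbols came from a gene name table, and coordinates and merged exon lengths from GENCODE release 29 (GRCh38). The shELOVL5 and shNC libraries were compared with edgeR 4.0.16 in R 4.3.3: filterByExpr with a minimum count of 10, TMM scaling, and the two-sided quasi-likelihood test with robust=TRUE and no term besides group. P-values were adjusted by Benjamini-Hochberg across the 17461 tested genes (threshold 0.05). SEs are the log2 fold change over the square root of the F statistic, and intervals are 95% intervals from the fit. Whether replicates came from separate cultures is not in the labels, and the p-values reflect only how these libraries vary, and that spread may be technical.

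The 44 genes and the other lists were chosen with earlier results of these data known. In each complex the gene with the smallest p and that with the largest fold change were to be given in full, and from each related list up to 3 genes per direction with the smallest p were named. RBBP4 is given with its complex. Alternatives were RLE factors, total counts only, no low-count filter, 1 CPM in 2 libraries, DESeq2 1.42.0, limma-voom (limma 3.58.1), robust=FALSE, a replicate block, a test against a fold of 1.2 and leaving out each library. Of 14 pseudogene copies found by name, none had more than 2 counts in a library. Exons of 13 of the 44 genes overlap a gene with at least 100 counts in some library, and values there are uncertain without strand.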

Additional observations from a re-analysis of the deposited data

How the results depend on the processing

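The number of replication genes called lower was 25, and it was 22 to 25 under the 8 alternatives of scaling, filter, tool and block, and 12 against a 1.2-fold change. Leaving out 1 library gave 19 to 25 lower, and 0 were called higher under any of these. Of the 25, 18 passed with each library left out in turn, in fits of 1 library against 2 where the lone library is assumed to vary like the other group. Over all genes, 1952 fell and 1610 rose. Against a 1.2-fold change 641 fell and 408 rose, with no low-count filter 899 rose, and leaving out 1 library gave 1176 to 1616 lower and 696 to 1347 higher. With no low-count filter 31428 genes were tested and 1344 of them fell. With 1 library left out 18354 to 18499 genes were tested, so these counts are not out of the 17461 genes of the main fit. By total counts alone 1674 fell and 1933 rose, where the median log2 fold change of all genes was 0.042. With the replicate block 1902 genes fell and 1551 rose, and the same 25 replication genes were lower; a deoxynucleotide and a checkpoint gene were also called higher. Against a 1.2-fold change 2 other replication factors, 2 chaperone, 0 E2F, 1 S phase, 1 checkpoint, 2 deoxynucleotide and 2 mitosis genes fell. The main counts were 8, 8, 4, 5, 4, 7 and 8. In the 1.2-fold test 1 gene of these lists rose, E2F7 (log2 fold change 0.61), where 4 rose in the main fit. The replicate numbers share no stated batch, and replicate differences did not correlate between groups (r = -0.0148 over 17461 genes). Signs turned for genes that never passed: by total counts alone GINS1 had a log2 fold change of 0.019 and WDHD1 of 0.012. Leaving out 1 library gave ranges across 0: -0.056 to 0.014 for GINS1, -0.005 to 0.217 for GINS3, -0.074 to 0.102 for POLA1, -0.016 to 0.084 for RFC1, -0.088 to 0.143 for TIPIN and -0.067 to 0.011 for WDHD1. The cause was not tested. The SE was larger for genes with fewer counts, from 0.038 for MCM7 (8175 to 11995 counts per library) to 0.16 for POLE2 (275 to 458).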
